A study of Mus musculus with 7 samples.

Results

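The nuclear-encoded subunits of oxidative phosphorylation were described in 7 single neurons of the mouse hippocampus. Members were chosen by name alone: gene symbols that begin with Nduf and a letter of the a, b, c, s or v series and a number, Sdha to Sdhd, Uqcr, Cox4 to Cox8 or Atp5, plus Cyc1, Cycs and Usmg5, with symbols of named pseudogenes left out. This gave 87 of the 20810 protein-coding genes that all 7 tables name: 37 named for complex I, 4 for complex II, 9 for complex III, 18 for complex IV, 18 for complex V, and Cycs, the mobile carrier cytochrome c. All 87 were listed in every table. The cells were long-range VIP-GABAergic neurons, inhibitory neurons of the CA1 stratum oriens/alveus whose axon had been traced with biocytin to the subiculum. They came from mice of the VIP-eGFP strain (MMRRC strain #31009), in which eGFP stands under the control of the Vip gene. Each was patched in an acute slice, aspirated and made into 1 SMART-Seq v4 library. No mouse was given an experimental treatment, and the labels give no age and tie no cell to an animal, so the 7 cells make up 1 group, no comparison between groups exists, and every spread below describes these cells alone.

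In oxidative phosphorylation, complexes I and II feed electrons from NADH and succinate to ubiquinone, complex III passes them to cytochrome c, and complex IV hands them to oxygen. Complexes I, III and IV pump protons out of the mitochondrial matrix, and complex V, the ATP synthase, uses the return flow to make ATP. Most subunits are encoded in the nucleus and imported, a few hydrophobic ones are encoded in mitochondrial DNA, and inhibitory interneurons that fire fast are known for a high demand on this pathway.

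The deposited levels are TPM, transcripts per 1000000, a measure already divided by transcript length. The tables were normalised separately, and the 20810 shared coding genes took 13.1% of deposited TPM in cell 6 and up to 72.6% in cell 7. Levels set side by side across cells were therefore rescaled so that these genes sum to 1000000 in each cell, and are called coding TPM; a gene was called detected above 1 deposited TPM. Libraries held 1052327 to 3398521 estimated counts. Vip was detected in all 7 cells, from 25.3 to 5006 deposited TPM, and 4 to 8 of 8 GABAergic markers were detected per cell. The GABAergic markers summed to 197 coding TPM in cell 7, against 1015 to 1702 in cells 1 to 6. RNA of other cell types was present too: 3 to 6 of 8 oligodendrocyte markers were detected per cell (summed 113 to 20793 deposited TPM), 0 to 7 of 8 microglial ones (1.55 to 1702), 1 to 5 of 8 astrocyte ones (2.45 to 778) and 2 to 4 of 5 red blood cell ones (104 to 10494). Their part in the members' levels was not tested. Cells 1 to 6 were quantified on RefSeq transcripts and cell 7 on Ensembl transcripts, so whatever sets cell 7 apart cannot be told apart from its transcript models. Less RNA in a cell and less RNA captured from it cannot be told apart either.

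The members took 8.64%, 5.84%, 10.7%, 15.1%, 7.26%, 12.8% and 13.1% of coding TPM in cells 1 to 7, a median of 10.7% (mean 10.5% ± 3.40, SD over the 7 cells). The share was lowest in cell 2 and highest in cell 4, 2 cells that detected the same number of members. Counted in reads, which favour long transcripts, the members held 1.80% to 5.0% of coding counts, with a median of 3.63%. Between 45 and 62 members (median 52) stood among the 500 highest coding genes of a cell, and 17 to 32 among the 100 highest. The median member stood at percentile 97.8 to 99.1 of all coding genes. The highest member was Cox8a in cells 1 and 6, Cox6c in cell 2, Uqcr11 in cell 3 and Usmg5 in cells 4, 5 and 7.

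**Figure D1:**
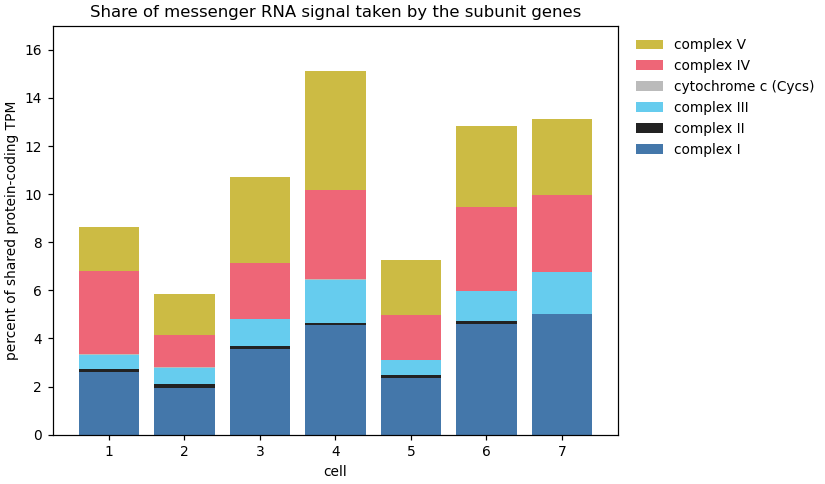
Percent of shared protein-coding TPM taken by the subunit genes in each of the 7 cells (1 bar per cell, no error bars), stacked by complex from complex I at the bottom to complex V at the top. Whole bars run from 5.84% in cell 2 to 15.1% in cell 4, and the dark band of complex II is not visible in cell 7.

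The members made up a set that most cells expressed. Of 87, 58 (66.7%) were detected in all 7 cells, against 2.94% of all coding genes, and 5 were detected in no cell, against 44.9% of all coding genes. In cells 1 to 7, 68, 78, 78, 78, 77, 72 and 66 members were detected, against 14.8%, 38.7%, 24.8%, 21.3%, 32.6%, 17.3% and 14.6% of all coding genes. Values were close to all or none: of 609 pairs of a member and a cell, 81 were at 0, 11 lay above 0 and up to 1 TPM, 20 lay above 1 and up to 10 TPM, and 497 exceeded 10 TPM. The pairs just below the threshold rested on at most 4 estimated counts. Cells 1, 6 and 7 had the fewest members, and also the fewest detected coding genes, 3081, 3601 and 3035, against 4425 to 8062 in the others. Cell 4, with the fewest total counts, detected 78 members, and cell 7, with 3225330 counts, detected 66. The fewest counts on coding genes, 700264, were in cell 6, which detected 72. The part of depth in these numbers was not tested.

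**Figure D2:**
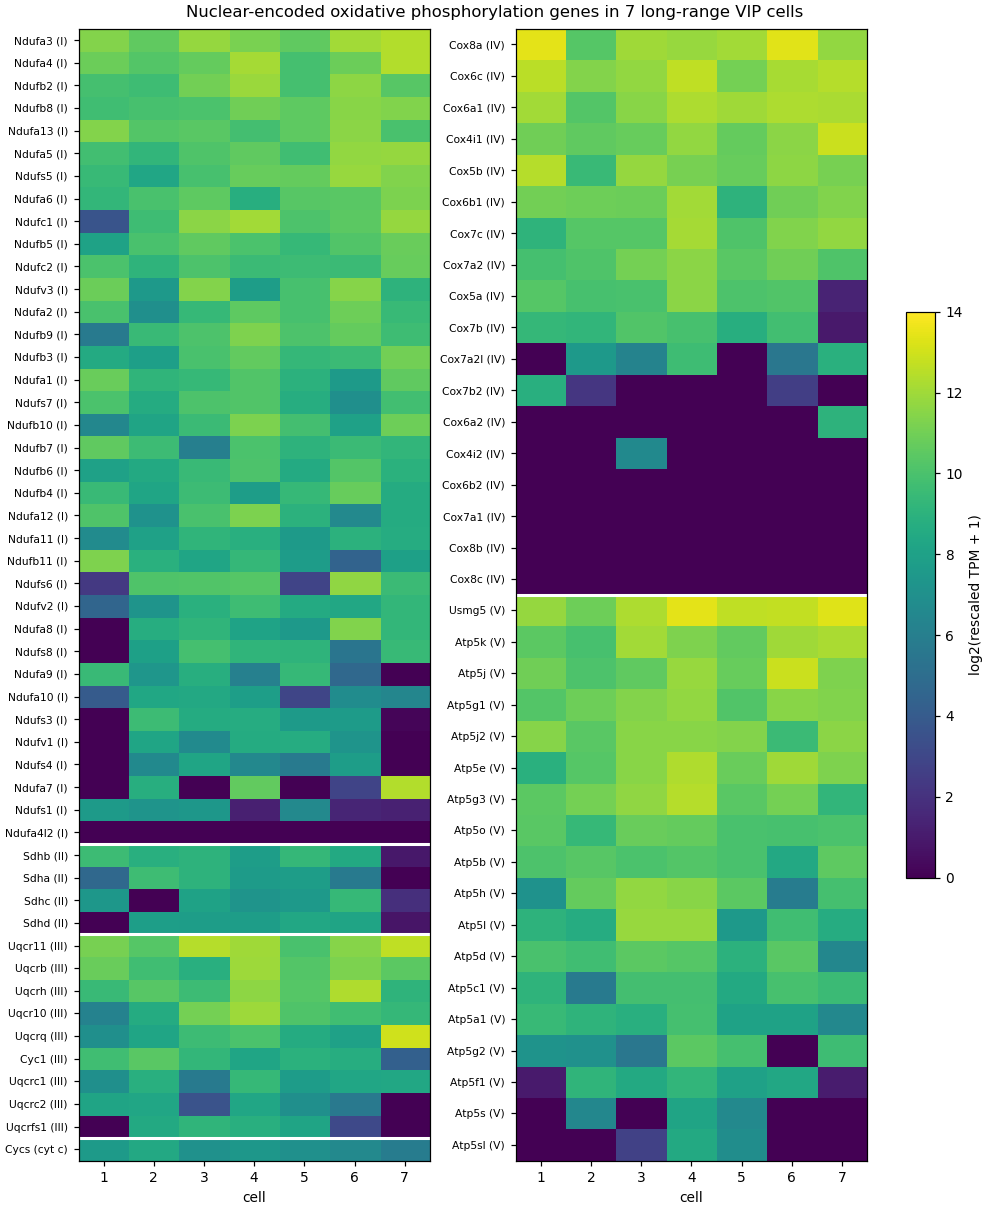
Level of 86 of the 87 members (rows, by complex and then by mean level) in the 7 cells (columns), as log2(coding TPM + 1), dark for 0. Most rows are bright in every column, the tissue isoforms of complex IV are mostly dark, and cell 7 is dark for, among others, Sdha, Sdhb, Sdhd, Cox5a and Cox7b.

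Complex I takes electrons from NADH. Its 37 named members took 30.2% to 38.3% of the members' summed TPM and were the largest complex in cells 2, 5, 6 and 7. In cell 5 they summed to 7934 deposited TPM, against 7746 for complex V. That lead is smaller than the 313 deposited TPM of Ndufa4, described below, and depends on counting it here. The small accessory subunits led. Ndufa3, an accessory subunit of the membrane arm, had a low of 1522 coding TPM in cell 5, a median of 2656 and a high of 5347 in cell 7. Ndufa4, named for complex I and since placed with complex IV, had a low of 931 coding TPM in cell 5, a median of 1852 and a high of 5372 in cell 7. Both were present in every cell, and their highest values were 3.51 and 5.77 times their lowest. Ndufb2, of the membrane arm, had a low of 816 coding TPM in cell 2, a median of 1313 and a high of 3870.2 in cell 4. Ndufb8, another membrane arm subunit, had a low of 837 coding TPM in cell 1, a median of 1481 and a high of 2961 in cell 6. These 4 had the highest mean log levels of the complex. Ndufc2, also of the membrane arm, and Ndufa13, an accessory subunit known as well as GRIM-19, were the steadiest, with an SD of 0.53 and 0.68 on the log2(coding TPM + 1) scale. Ndufc2 ran from 557 coding TPM in cell 2 to 1739 in cell 7, with a median of 781. Ndufa13 ran from 891 coding TPM in cell 4 to 3070.0 in cell 6, with a median of 1384.

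The 7 nuclear core subunits, which carry the flavin and the iron-sulphur clusters, had a lower median than the accessory ones in each cell. Their median level was 8.28, 173, 100.3, 132, 127, 16.4 and 1.02 deposited TPM in cells 1 to 7, against 259, 278, 256, 376, 223, 183 and 743 for the 29 accessory subunits. In the same cells 4, 7, 7, 6, 7, 5 and 4 of the 7 core subunits were detected, against 26 to 29 of the 29 accessory ones. Core transcripts were also longer, with a median length of 1588.5 bases against 641 for accessory ones. Ndufs7 and Ndufv2 were the core genes detected in all 7 cells, Ndufs7 holding the last iron-sulphur cluster before ubiquinone and Ndufv2 one beside the flavin. Ndufs7 ran from 125 coding TPM in cell 6 to 1153 in cell 4, with a median of 861. Ndufv2 ran from 22.7 coding TPM in cell 1 to 805 in cell 4, with a median of 369. Ndufs3, a core subunit of the arm that protrudes into the matrix, was at 0 in cell 1 and 0.145 coding TPM in cell 7, against 198 to 762 in the other 5 cells. Ndufv1, which binds NADH, was at 0 in cells 1 and 7 and 101 to 412 coding TPM elsewhere. Both were therefore missing from cells 1 and 7. Ndufs1, the largest iron-sulphur subunit, had 2, 2 and 8 counts in cells 4, 6 and 7 and 218 to 527 in the others.

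Some short accessory transcripts had gaps as well. Ndufs6, which holds a zinc ion, had 1 count in cell 1 and 2 in cell 5, against 256 to 739 in the other 5 cells, and its SD of 3.84 was among the 6 largest. Ndufa7, an accessory subunit whose transcript has 540 bases, was detected in cells 2, 4 and 7 alone. It reached 444, 1607 and 5439.9 coding TPM there, with 225, 336 and 4502 counts, and had 0, 0, 0 and 1 counts in cells 1, 3, 5 and 6. Its values therefore fell into present and absent cells, with none between.

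Complex II, succinate dehydrogenase, also belongs to the citric acid cycle and is wholly encoded in the nucleus. Its 4 members took the smallest part of the members' TPM of the 5 complexes, at 1.14%, 2.52%, 1.46%, 0.527%, 1.90%, 1.06% and 0.00328% in cells 1 to 7. Sdha, the flavoprotein that oxidises succinate, had a low of 0 coding TPM in cell 7, a median of 204 and a high of 796 in cell 2. Sdhb, the iron-sulphur subunit, had a low of 0.894 coding TPM in cell 7, a median of 450.2 and a high of 787 in cell 1. Sdhc, a membrane anchor, had a low of 0 coding TPM in cell 2, a median of 171 and a high of 671 in cell 6. Cell 7 was the low cell for Sdha and Sdhb, and cell 2 for Sdhc. Sdhd, the other anchor, had a low of 0 coding TPM in cell 1, a median of 222 and a high of 330.1 in cell 5, and cell 7 was next lowest at 0.742. In cell 7, a library of 3225330 counts, Sdha, Sdhb, Sdhc and Sdhd had 0, 2, 19 and 2 counts, so 1 of the 4 was detected there, at 1.94 deposited TPM for Sdhc. The counts of Sdhc in cell 7 fell on longer models, with an effective length of 3119.9 bases, against a median of 960.3 in the other cells. In cells 1 to 6, 3 or 4 of the 4 were detected. Other features that set cell 7 apart stand beside this. Its 8 oligodendrocyte markers summed to 20793 deposited TPM with 6 of 8 detected and Olig1 and Olig2 at 0, against 113 to 1288 TPM and 3 to 5 of 8 in cells 1 to 6. Their part in the result was not tested, nor was that of the transcript models.

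Complex III moves electrons from ubiquinone to cytochrome c. Uqcr11, a small accessory subunit, had a low of 1027 coding TPM in cell 5, a median of 2783 and a high of 6528 in cell 7. Uqcrb, a ubiquinone-binding subunit, had a low of 453 coding TPM in cell 3, a median of 1395 and a high of 4015 in cell 4. Uqcrh, the hinge protein that helps cytochrome c1 meet cytochrome c, had a low of 543 coding TPM in cell 7, a median of 1263 and a high of 5184 in cell 6. None of the 3 was lost in any cell. Uqcr10, another accessory subunit, had a low of 72.5 coding TPM in cell 1, a median of 843 and a high of 3995 in cell 4. The catalytic subunits Cyc1 and Uqcrfs1 had an SD of 1.99 and 4.22 on the log2 scale. The 5 accessory subunits ran from 1.03 for Uqcrb to 1.94 for Uqcrq, so only Uqcrfs1 stood apart. Cyc1, cytochrome c1, had a low of 18.8 coding TPM in cell 7, a median of 482 and a high of 1392 in cell 2, and cell 7 lay far below the next lowest cell, which had 295. Uqcrfs1, the Rieske iron-sulphur protein, was at 0 in cells 1 and 7 and had 4 counts in cell 6, against 283 to 581 coding TPM in cells 2 to 5. Cycs, cytochrome c itself, was detected in every cell, at 57.1 coding TPM in cell 7 to 354 in cell 2, with a median of 136. The transcript models differed between cells for Uqcrq, an accessory subunit. It had 5824 deposited TPM in cell 7 against 33.8 to 338 in the others, but cell 7 placed most of the signal on a model of 405 bases and the others on models of 1440 or 1525 bases. In estimated counts, cell 7 had 5843 and the others 108 to 776. The part of the models in these values was not tested. Of the 65 members that could be compared in this way, 6 (Atp5b, Atp5j2, Ndufa13, Ndufb4, Sdhc and Uqcrq) had an effective length in cell 7 that differed by over 1.5-fold from the median of the other cells.

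Complex IV, cytochrome c oxidase, was led by small subunits around the catalytic core, which mitochondrial DNA encodes. Cox8a had a low of 1259 coding TPM in cell 2, a median of 4105 and a high of 10892 in cell 1. Cox6c had a low of 2118 coding TPM in cell 5, a median of 4670.4 and a high of 6507 in cell 4. Cox6a1 had a low of 1223 coding TPM in cell 2, a median of 4206 and a high of 4977 in cell 4. Cell 2 had the lowest Cox8a and Cox6a1, and each of the 3 was high in every cell. Cox6b1, which lies where the enzyme forms dimers, had a low of 528 coding TPM in cell 5, a median of 2010.1 and a high of 4218 in cell 4. Cox7a2, another small membrane subunit, had a low of 939.9 coding TPM in cell 1, a median of 1381 and a high of 3059 in cell 4, and its SD of 0.61 on the log2 scale was among the 6 smallest. Cox4i1, the subunit through which ATP inhibits the enzyme, had a low of 1547 coding TPM in cell 2, a median of 2026 and a high of 7536 in cell 7. Cox5b, which binds zinc, was highest in cell 1, at 5569 coding TPM against 713 to 3592 in the others. Complex IV took 40.0% of the members' TPM in cell 1, against 21.8% to 27.2% in the other 6 cells, and Cox8a, Cox6c and Cox5b were the 3 highest members there. Cox5a, which lies on the matrix side, had 2 counts in cell 7, against 965 to 3011 coding TPM in cells 1 to 6. Cox7b was another gap of that cell, with 1 count in cell 7 and 438 to 1189 coding TPM in cells 1 to 6. Cox7a2l, which links complexes III and IV into supercomplexes, was at 0 in cells 1 and 5 and 45.4 to 816 coding TPM elsewhere.

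Several subunits of complex IV and complex I come as a widespread form and a form restricted to certain tissues, such as heart and muscle, lung or testis. In the 7 families with a widespread form (Cox4i1, Cox6a1, Cox6b1, Cox7a2, Cox7b, Cox8a and Ndufa4), that form had the highest TPM of its family in 49 of 49 pairs of a family and a cell. Its lowest part of the family's TPM was 94.6% for Cox4i1, 90.0% for Cox6a1, 70.9% for Cox7a2 and 58.8% for Cox7b in cell 1, and 100% in every cell for Cox6b1, Cox8a and Ndufa4. The rest of the Cox7a2 family was Cox7a2l, which is not a tissue-restricted form, while the restricted Cox7a1 was at 0 in all 7 cells. For Cox7b in cell 7 that order rested on 1 count. The 5 members detected in no cell were all restricted forms: Cox6b2 and Cox8c, testis forms, Cox7a1 and Cox8b, heart and muscle forms, and Ndufa4l2, known for its rise in low oxygen. All 5 had 0 counts in all 7 cells. A count of 0 allows up to 3.58 to 7.81 deposited TPM for Cox8b and 1.03 to 2.19 for Ndufa4l2, the level that 3 counts would give, for counting error only.

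Each of the 3 other restricted forms appeared in 1 cell above the level of 3 counts. Cox6a2, the heart and muscle form of Cox6a (chr7:128205435-128206387, minus strand, mm10), had 641 counts and 391 deposited TPM in cell 7 and 0 counts in cells 1 to 6. Cox6a1 had 3527 deposited TPM in the same cell. Cell 7 also held the highest oligodendrocyte marker sum, and of the medial interneuron markers it had Sst at 501 and Npy at 609 deposited TPM with Pvalb at 0. Across the 7 cells, 0 to 5 of the 7 medial markers were detected, with a sum of 0.141 to 1176 deposited TPM, and 2 of 7 in cell 7. Their part in the level of Cox6a2 was not tested. Cox4i2, the lung form of Cox4 (chr2:152754173-152765037, plus strand), had 39 counts and 25.2 deposited TPM in cell 3 and 0 elsewhere. Of 8 pericyte and vascular markers, cell 3 had 1 detected, Rgs5 at 1.33 deposited TPM, with Kcnj8, Abcc9, Vtn, Higd1b, Pdgfrb, Pecam1 and Cldn5 at 0, and the sum over the list was 0 to 87.0 TPM across cells. Cox7b2, a testis form, had 127 counts and 167 deposited TPM in cell 1, against 2 and 1 counts in cells 2 and 6 and 0 in the others. Each of these values comes from 1 cell and has no replicate.

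**Figure D3:**
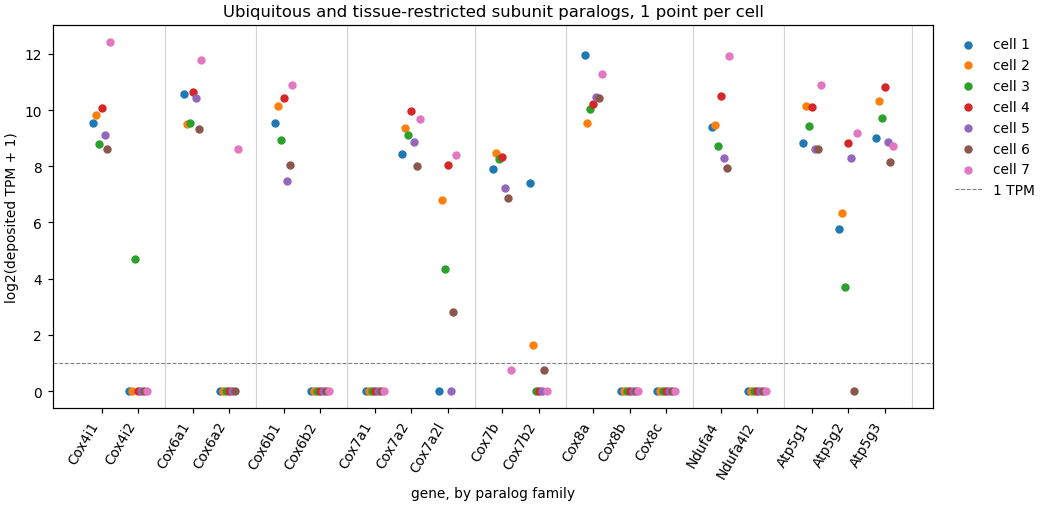
Deposited TPM, as log2(TPM + 1), of each member of the 8 paralog families, with 1 coloured point per cell and a dashed line at 1 TPM. The widespread forms lie high in nearly all cells, while Cox4i2, Cox6a2 and Cox7b2 each have 1 high point and Cox6b2, Cox7a1, Cox8b, Cox8c and Ndufa4l2 lie at 0.

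Upstream sequence is shown for a Cox8 and a Cox7a paralog pair in which 1 form was detected in every cell and its partner in none. It is a feature that the choice of members did not use. Cox6b1 and Cox6b2 meet the same condition but are not printed, and their CG counts, given below, lie closer together. The 150 bases before the RefSeq start (GRCm38.p6) are given 5′ to 3′ on the gene's strand, with every CG in capitals. Cox8a lies at chr19:7217617-7217766 on the minus strand, Cox8b at chr7:140900447-140900596 on the minus strand, Cox7a2 at chr9:79759854-79760003 on the minus strand and Cox7a1 at chr7:30184021-30184170 on the plus strand.
Cox8a: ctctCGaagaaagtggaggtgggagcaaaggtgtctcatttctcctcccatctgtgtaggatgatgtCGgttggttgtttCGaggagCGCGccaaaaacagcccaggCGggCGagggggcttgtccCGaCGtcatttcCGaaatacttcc
Cox8b: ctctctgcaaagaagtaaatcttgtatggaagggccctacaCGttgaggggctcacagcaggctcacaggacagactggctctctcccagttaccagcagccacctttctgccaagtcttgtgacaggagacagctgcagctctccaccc
Cox7a2: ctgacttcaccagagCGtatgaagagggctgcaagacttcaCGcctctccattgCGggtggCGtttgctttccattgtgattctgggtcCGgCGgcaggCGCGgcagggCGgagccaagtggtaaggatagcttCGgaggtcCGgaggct
Cox7a1: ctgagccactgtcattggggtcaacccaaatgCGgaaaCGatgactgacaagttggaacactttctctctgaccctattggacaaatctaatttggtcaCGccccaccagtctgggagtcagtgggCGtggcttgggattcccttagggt
In these stretches Cox8a had 10 CG and Cox8b 1, and Cox7a2 had 11 and Cox7a1 4. Over the whole window of 300 bases, from 250 before to 50 after the start, the counts were 19 for Cox8a against 2 for Cox8b, 20 for Cox7a2 against 7 for Cox7a1, and 17 for Cox6b1 against 10 for Cox6b2. Cox7b and Cox7b2, detected in 6 and 2 cells, fall outside that condition. Cox7b, with 5, had fewer than Cox7b2, with 10, so the order did not hold for each pair of paralogs. The 71 members with an entry had a median of 19 CG per window, against 15 for all 17492 coding genes with one.

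Nuclear respiratory factor 1 is a textbook regulator of respiratory chain genes, and its letters were searched in the same windows on both strands, as GCGCA, any base and GCGC. They were present in 17 of 71 members (23.9%), against 7.17% of all coding genes with an entry. By detection, they were in 13 of the 50 members with an entry that were detected in all 7 cells, in 4 of 17 detected in 3 to 6 cells, and in 0 of 4 detected in 0 to 2 cells. Examples from 3 members detected in all cells show where the letters fall, in capitals, within the 150 bases before the start. Cox6a1 lies at chr5:115348959-115349108 on the minus strand, Ndufs5, an accessory subunit of complex I, at chr4:123718187-123718336 on the minus strand, and Ndufa11, another, at chr17:56717612-56717761 on the plus strand.
Cox6a1: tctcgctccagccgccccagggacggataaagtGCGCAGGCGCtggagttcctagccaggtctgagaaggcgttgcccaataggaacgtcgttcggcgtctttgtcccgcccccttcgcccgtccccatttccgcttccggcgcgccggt
Ndufs5: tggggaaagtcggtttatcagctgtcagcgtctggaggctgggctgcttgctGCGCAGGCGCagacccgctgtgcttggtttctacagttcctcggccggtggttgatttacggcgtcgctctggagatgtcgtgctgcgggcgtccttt
Ndufa11: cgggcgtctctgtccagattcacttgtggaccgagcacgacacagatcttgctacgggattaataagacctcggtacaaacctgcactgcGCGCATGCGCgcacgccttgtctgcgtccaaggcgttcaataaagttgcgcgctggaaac
The letters of the ETS family to which nuclear respiratory factor 2 belongs, CCGGAAG, were also in 17 of 71 members (23.9%), against 12.9% of all coding genes. The letters of the transcription factor YY1, AA, any base and ATGGCGGC, were in 5 of 71 (7.04%), against 1.63%. The TATA box letters TATAAA were in 8 of 71 (11.3%), against 14.8%. The letters of nuclear respiratory factor 1 contain CG themselves, and the members' windows had a median of 19 CG against 15. The part of CG content in these shares was not tested. A match describes letters and is not shown to be a bound site, and the shares themselves were not tested.

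Complex V, the ATP synthase, joins a rotating c ring in the membrane to a catalytic head, F1. Usmg5, a small subunit that helps hold synthase dimers together (chr19:47083464-47090647, minus strand, mm10), had the highest mean level of all members, with a low of 1936 coding TPM in cell 2, a median of 6529 and a high of 11124 in cell 4. Atp5k, subunit e, also at the dimer interface, had a low of 977 coding TPM in cell 2, a median of 2546 and a high of 4729.7 in cell 7. Atp5j, subunit F6 of the peripheral stalk, had a low of 1075 coding TPM in cell 2, a median of 1989 and a high of 7653 in cell 6. All 4 accessory subunits (Usmg5, Atp5k, Atp5j2 and Atp5l) were detected in every cell, as were all 5 subunits of F1. Atp5o, the stalk subunit that joins the head, was the steadiest of the members with a mean log2 level of at least 5, with an SD of 0.50 on the log2 scale, and ran from 656 coding TPM in cell 2 to 1759 in cell 3, with a median of 1035. The catalytic beta subunit Atp5b ran from 350.2 coding TPM in cell 6 to 1496 in cell 7, with a median of 1076. Atp5f1, the stalk subunit b, was a gap in cells 1 and 7, with 1 and 3 counts, against 234 to 1144 in the others.

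The c subunit of the ring is encoded by 3 genes that give the same mature protein. Atp5g1 had a low of 1169.6 coding TPM in cell 5, a median of 2634 and a high of 3366 in cell 4. Atp5g3 had a low of 587 coding TPM in cell 7, a median of 2149 and a high of 5520.2 in cell 4. Atp5g2 had a low of 0 coding TPM in cell 6, a median of 147 and a high of 1409.7 in cell 4. Atp5g3 was the highest of the 3 in cells 1 to 5 and Atp5g1 in cells 6 and 7, so no single gene led throughout, and Atp5g2 was the lowest in 6 of the 7 cells. Atp5s and Atp5sl, which are named for complex V but are not structural subunits, were each detected in 3 cells, all among cells 2 to 5.

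The shares of all 87 members detected in cells 1 and 7 were lower for longer transcripts, a split chosen after the values were seen. Of the 52 of up to 800 bases, 84.6%, 82.7% and 88.5% were detected in cells 1, 6 and 7. The shares were 69.2%, 92.3% and 69.2% of the 13 of over 800 and up to 1200 bases. Of the 22 of over 1200 bases they were 68.2%, 77.3% and 50%. In cells 2 to 5 they were 84.6% to 88.5% up to 800 bases and 95.5% to 100% over 1200 bases. Among the members detected in each of cells 2 to 5, 44 had a length of up to 800 bases, and 43, 43 and 44 of them were detected in cells 1, 6 and 7. For the 10 of over 800 and up to 1200 bases the numbers were 8, 10 and 7, and for the 19 of over 1200 bases they were 14, 17 and 10. This set leaves out members that any of cells 2 to 5 lacked, so its shares are not those of all members. By construction, it and the 2030 coding genes chosen alike can show losses only in cells 1, 6 and 7. Of the 2030 coding genes detected in each of cells 2 to 5, 59.8%, 66.5% and 49.3% were detected in cells 1, 6 and 7. The shares were 86.1%, 88.8% and 82.4% of 187 genes of up to 800 bases, and 56.1%, 63.8% and 44.8% of 1663 genes of over 1200 bases. Coding genes as a whole did not show this order in each cell: 17.0%, 18.5% and 18.6% of those of up to 800 bases were detected in cells 1, 6 and 7, against 16.0%, 18.7% and 15.5% of those of over 1200 bases. Level in TPM and length also ran against each other among the members of each cell, with a Spearman correlation over 87 members of -0.51 in cell 7 to -0.30 in cell 2. Over the 2030 coding genes it was -0.56 to -0.26 in the 7 cells. In estimated counts, which are not divided by length, the correlation over the 87 members had no common sign, from -0.38 in cell 7 to 0.30 in cell 2. These correlations run across genes of 1 library, share its depth, and, for TPM, carry its division by length. All lengths here are a gene's median over the RefSeq models listed for cell 1, also where cell 7 is described. The Ensembl models of cell 7 can differ: Uqcrq counts here as 1482.5 bases, while its main model in cell 7 has 405. The pattern under cell 7's own lengths was not tested.

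**Figure D4:**
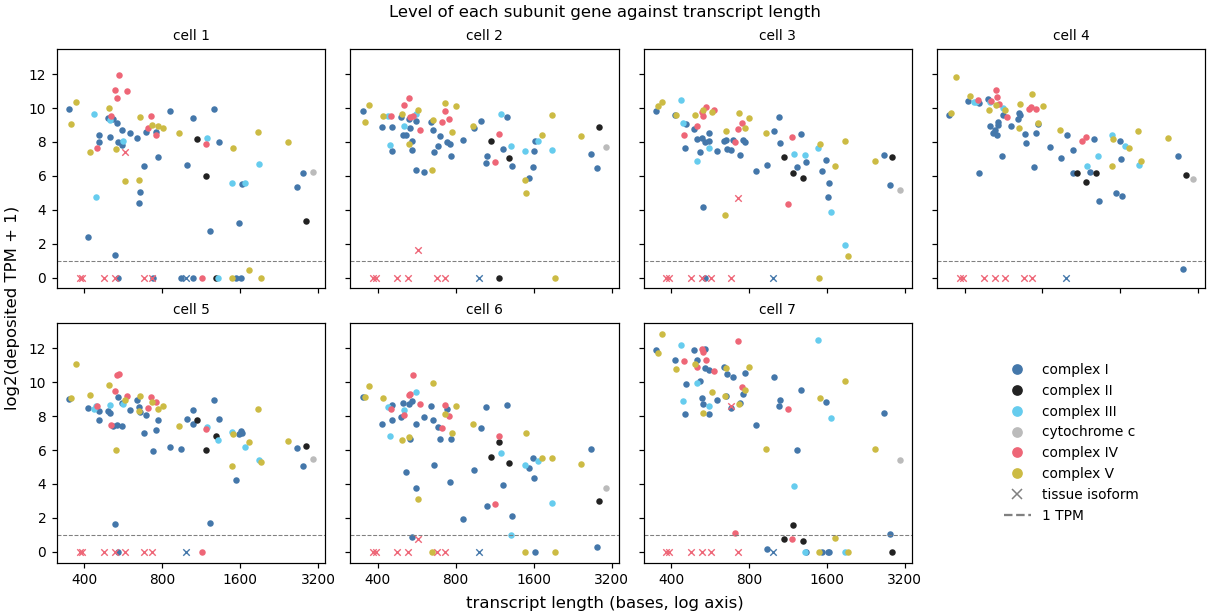
Deposited TPM of each of the 87 members, as log2(TPM + 1), against its transcript length in bases on a log axis, 1 panel per cell, coloured by complex, with crosses for tissue isoforms and a dashed line at 1 TPM. Lengths are those of the RefSeq models of cell 1 in every panel, also in that of cell 7. In cells 2 to 5 most points lie above the line at every length, and in cell 7 most of the points at or near 0, tissue isoforms aside, lie at the longer lengths, among them 3 of the 4 complex II genes.

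The spread of the members between cells was set beside that of other coding genes past the same minimum mean level, without a test and without matching the levels. Their median SD was 1.22 on the log2(coding TPM + 1) scale. For a mean log2 level of at least 5, the median SD was 1.20 over 74 members, against 2.80 over 1235 other coding genes, with mean levels whose median was 9.57 for these members and 6.30 for the other genes. For a mean of at least 8, it was 1.04 over 56 members, against 1.30 over 251 other genes, with mean levels whose median was 9.92 for these members and 9.10 for the other genes. The other genes thus had lower levels under both limits. The ranking of the members was similar between cells. Over the 21 pairs of cells, the Spearman correlation of the 87 members had a median of 0.72 and ran from 0.59 to 0.81, across genes that share length and sequence between cells.

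Genes that help to build the complexes were detected in fewer cells than the subunits. The list of 50 genes, assembly factors and the synthase inhibitor Atpif1, had 5 genes detected in all 7 cells and 4 in none, with 15 to 37 (median 20) detected per cell. Of all coding genes, 2.94% were detected in all 7 cells, 44.9% in none and 14.6% to 38.7% per cell. Median transcript lengths of the factors were 1674, 831, 2025.5, 1202 and 1807.75 bases for complexes I to V. Those of the members were 693, 1233, 1194, 558.5 and 750.5 bases. The median over genes of the median level was 238 deposited TPM for the members, against 0.406 for these factors. The 5 present throughout were Ndufab1, the acyl carrier protein that also sits in complex I, Uqcc2, which acts on cytochrome b, Cox14 and Cox17, which act on cytochrome oxidase, and Atpif1. Atpif1 ran from 233 coding TPM in cell 2 to 4991 in cell 7, with a median of 899. Uqcc2 ran from 122 coding TPM in cell 2 to 4771 in cell 1, with a median of 1466. None of the 4 complex II assembly factors was detected in all cells, and Sdhaf3 was at 0 in each of them.

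Of 14 regulators of respiratory genes, none was detected in all 7 cells. In cells 1 to 7, 1, 11, 6, 9, 8, 8 and 1 of the 14 were detected, beside the shares of all coding genes given above for these cells. Tfam, which activates transcription of mitochondrial DNA, had 78.7 deposited TPM in cell 2, 9.52 in cell 6 and 0 in the others. Nrf1, the gene of nuclear respiratory factor 1, ran from 0.553 to 13.8 deposited TPM and Ppargc1a, the coactivator PGC-1 alpha, from 0.0486 to 43.0. Of the 6 carriers and porins that move nucleotides and phosphate, 4 were detected in all 7 cells, among them Slc25a4, the adenine nucleotide translocator, which ran from 748 coding TPM in cell 5 to 3158 in cell 6, with a median of 1583. Of 16 glycolysis genes, 11 were detected in all 7 cells, Gapdh from 1986 coding TPM in cell 6 to 8051 in cell 4, with a median of 3409.6. Of 13 citric acid cycle genes, 1 was, Cs, the citrate synthase gene, and 4 to 13 were detected per cell. Over all coding genes, 2.94% were detected in all 7 cells and 14.6% to 38.7% per cell. Median transcript lengths were 2143.5 bases for glycolysis and 2291 for the citric acid cycle. They were 3709 bases for the regulators and 1466.75 for the carriers and porins.

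The mitochondrially encoded partners of the members were listed in the table of cell 7 alone. The 87 nuclear members summed to 95302 deposited TPM in that cell, against 180556 for the 13 mitochondrial genes, all of which were detected. The ratio of mitochondrial over nuclear TPM was 1.89 in all. By complex it was 0.895 for complex I, 0.791 for complex III, 3.24 for complex IV and 2.74 for complex V. The 3 mitochondrial subunits of complex IV and the 2 of complex V had higher sums than the 18 nuclear members of each. The 7 of complex I summed to 32631.5 deposited TPM, below the 36472 of its 37 named members. Those 37 include Ndufa4, since placed with complex IV, at 3899 deposited TPM in cell 7. This is more than the gap between these sums, so without Ndufa4 the order for complex I is reversed.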

How the data were processed

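Each sample was 1 aspirated neuron. Per the labels' protocols, complementary DNA was made with SMART-Seq v4, which reads whole transcripts without strand or molecular identifiers, and libraries with Nextera XT were sequenced as paired ends. Per the file headers, the authors deposited an estimated count and a TPM value for every transcript, beside its length. STAR 2.5.2a, kallisto and the mm10 build are named in the submitters' processing notes. What each tool did, with which settings and on which annotation, is not given in the sources used here. By their identifiers, 107278 RefSeq transcripts were listed for cells 1 to 5 (107277 for cell 6) but 88197 Ensembl transcripts for cell 7, so each table was normalised separately.

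TPM and estimated counts were summed per gene symbol with pandas 2.3.3. A gene was detected above 1 deposited TPM. TPM was rescaled over the 20810 coding, nuclear-encoded genes named in all tables (GENCODE M21 or RefSeq biotype), and log values are log2(rescaled TPM + 1), which understates differences of low genes. Transcript length was the median over a gene's RefSeq models listed for cell 1, and was used for all cells. The floor for a count of 0 is the TPM that 3 counts would give. Such floors allow for counting error alone, because PCR copies of a molecule are not independent. Estimated counts were not whole (tolerance 0.01) in at least 1 cell for 28 of 87 members, in all 7 cells for Ndufb4 and in 5 for Cycs and Cox7c, which share reads with other entries and are less certain. Promoter windows are from RefSeq, GRCm38.p6, and 71 of 87 members matched by gene symbol or gene ID; gene positions are from GENCODE M21.

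The 7 cells, tied to no animal, count as 1 sample, so no comparison was tested and no p-value is given. Dixon's criterion, used in the closing section, takes the cells as units and describes these 7 alone. The arithmetic was tested on simulated data. Members and lists were chosen with earlier results of these data known. Text names the 4 highest members of each complex, Cyc1, Cycs, Usmg5, all paralog family members, members detected in no cell, the 6 largest and 6 smallest SDs at a mean log2 value of at least 5, and up to 4 leading genes per list. Other genes named, such as Cox5a, Cox5b, Ndufa7, Ndufs1, Uqcrq and Atp5f1, were chosen after their values were seen. A gene that the rule names is not reported here. Alternatives were other thresholds, pseudocounts, scales, denominators, the highest transcript, annotated lengths and leaving out each cell.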

Additional observations from a re-analysis of the deposited data

Results flagged for a closer look

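Of 46 values examined, 9 had 1 cell far from the other 6, by Dixon's criterion for 7 values. The values were 7 summaries and the 39 members that the naming rule gives and that any cell had above 0. Cox5a, at 1.62 coding TPM in cell 7 against 965 to 3011 in the others, is named outside that rule and was not among them. For members, the criterion was applied to log2(coding TPM + 1). Chance alone flags about 1 in 20 groups of normal values, and members of 1 cell are not independent. A member above 0 in 1 cell alone is flagged by construction, as were Cox6a2 and Cox4i2. Some members were named for their spread over these same cells, so the number of flags is not a test. Cell 7 was far below the others for Sdhb, at 0.894 coding TPM against 219.6 to 787, for Cyc1, at 18.8 against 295 to 1392, and for Cox7b, at 0.962 against 438 to 1189. Cell 2 was low for Cox6a1, at 1223 coding TPM against 2889 to 4977. Cell 5 was low for Cox6b1, at 528 against 1874 to 4218. Restricted forms stood out upward. Cox6a2 had 538 coding TPM in cell 7 and 0 in the others, Cox4i2 had 97.6 in cell 3 and 0 in the others, and Cox7b2 had 457 in cell 1 and 0 to 5.09 in the others. Complex IV took 39.98% of the members' TPM in cell 1, against 21.8% to 27.2% in the other cells. The cause was not tested for any of these.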

How the results depend on the processing

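Of 73 alternative values for the 6 main results, 71 stayed within the set bounds (1.5 times a count, 1 SD of a share or level). For the median SD of 1.22 the bound was 1.29, the SD over members, which is wider than the value itself, so its 13 alternatives say nothing on stability. The 2 that moved concern the members' median share, 10.7% of coding TPM: it was 3.15% of all deposited TPM and 3.63% of coding genes by estimated counts, where the denominator or the weight of long transcripts is changed by construction. Detection in all 7 cells held for 58 members, and for 51 above 10 TPM, 62 above 0 TPM and 55 at 3 or more counts. Leaving out 1 cell at a time gave 58 to 63 members detected in all remaining cells (63 without cell 7) and 5 or 6 in none. The median was 74.5 to 77.5 members per cell, the share 9.66% to 11.8% and the median SD 1.10 to 1.34. The widespread paralog was highest in 42 of 42 pairs of a family and a cell, which follows by construction from 49 of 49. The number detected in all remaining cells cannot fall below 58, and even all 87 members would not pass 1.5 times 58. Both sets of left-out values are counted among the 71 but could not move, so they say nothing on stability. No paired analysis was possible because the cells form 1 group. For values at 0 in 1 cell, the parts of depth and of what was aspirated from that cell were not tested. Cell 7 was also quantified on other transcript models.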
